A study of Arabidopsis thaliana with 12 samples.

Results

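Plastid-encoded photosynthesis genes are the part of the photosynthetic machinery that is still transcribed inside the chloroplast. They were taken from the run of 95 consecutively numbered probe sets that holds the plastid genes, as those annotated to 1 gene whose symbol begins with psa, psb, pet, ndh or atp or is rbcL. The rule gave 41 probe sets for 41 genes, of 22746 probe sets tested in all, and used no measured value. There were 5 genes of photosystem I, 13 of photosystem II, 6 of the cytochrome b6f complex, 10 of the NDH complex, 6 of the ATP synthase, and rbcL, the gene of the large subunit of Rubisco. Genes, psbN among them, were placed by the start of the symbol and not by whether the product is a subunit of the complex. The 13 of photosystem II do not include psbA or psbK, so nothing below covers those genes. A further 9 probe sets in that range are annotated to several genes, ndhB among them, and were not used. Probe sets of the range without an annotated gene were not used either. All 41 genes lie on the plastid chromosome of the TAIR10.1 reference table, and the gene order used below is taken from it.

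The chloroplast keeps a small genome of its own, and the complexes of the thylakoid membrane are built from plastid-made and nucleus-made subunits. Photosystem II takes electrons from water, the cytochrome b6f complex passes them on, photosystem I lifts them to ferredoxin, the NDH complex returns some of them to the plastoquinone pool, and the ATP synthase uses the proton gradient. Rubisco, which fixes carbon dioxide, joins a plastid-encoded large subunit to a nucleus-encoded small one. Many plastid genes are cotranscribed with their neighbours and their transcripts are then cut, so that transcript levels depend on both synthesis and processing. Photosystem II is a complex known for photodamage in light and for a high turnover of its core proteins.

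The plants were Arabidopsis thaliana of the accession Col-0. Of the 2 genotypes, 1 carried sid2-1, a mutation in an isochorismate synthase gene that is needed for most salicylic acid made under pathogen attack, and the other was the wild type. There were 3 biological replicates in each of 4 groups, which were sid2-1 kept 3 weeks at 4 °C, sid2-1 kept at 22 °C, wild type kept 3 weeks at 4 °C and wild type kept at 22 °C. Alone among the 12, the titles of the 3 wild-type samples at 22 °C carry a bracketed 2 that the labels do not explain, and whether it marks another set of arrays, which would bear on the wild-type cold comparison and on the genotypes at 22 °C, was not tested. The mutated gene itself was not analysed here, so the genotype labels were not checked on it. Every group first grew at 22 °C for about 23 days, in soil and with 12 h of light a day, and the cold groups then stayed at 4 °C in the same day length and were harvested 4 h after lights on, while no separate harvest time is given for the warm plants. The cold plants were therefore older by the weeks of cold, and temperature and age cannot be told apart. The entire aerial part was taken, so that fewer green cells and less plastid RNA per cell cannot be told apart either.

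Each sample was read on 1 Affymetrix array, and a value below is the log2 signal that the authors obtained by GCRMA. Over all probe sets the arrays had medians of 4.39 to 4.47, and replicates correlated at 0.978 to 0.990. The lowest value of the table was 2.2, which 14.7% of its values shared. Of the 41 genes, 40 had a mean above 4, and 7 had a mean above 12, where few probe sets of the table lie (0.448%) and where differences may be compressed, which was not tested. The labels name a MessageAmp kit for amplification but not its primer. Kits of that kind commonly start from poly(A) tails, which plastid messengers do not stably carry, and what this does to the plastid signals was not tested. Of the markers chosen for green tissue, RCA, the gene of Rubisco activase, was the 1 of 10 with a named probe set. RCA stood at 13.17 to 13.51 in sid2-1 at 4 °C against 13.78 to 13.99 at 22 °C, and at 13.16 to 13.61 in wild type at 4 °C against 13.74 to 14.01 at 22 °C, so it was lower in the cold without overlap in both genotypes (log2 differences -0.55 ± 0.14 and -0.49 ± 0.14, SE, limma adjusted p = 0.0552 and 0.0517). The flower and pollen marker TUA1, 1 of 10, stood at 7.26 to 8.21 in sid2-1 at 4 °C against 7.10 to 7.69 at 22 °C, which overlap, and at 8.11 to 8.18 in wild type at 4 °C against 7.09 to 7.57 at 22 °C, which do not. These markers thus differed between temperatures beside the plastid genes described below, and their part in those results was not tested. The root markers EXPA7 and EXPA18, 2 of 11 with a probe set, stood at 2.2 to 2.54 on all arrays. Signals of different probe sets are not on one scale, so no gene's level is set against another's.

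The first question was how each gene's transcript differed between 4 °C and 22 °C in each genotype. One gene, rbcL, rose in both, while all 13 photosystem II genes measured had a lower mean in the cold in both genotypes. Of these 13, psbC and psbF were past the test in wild type. The medians of the other complexes lay closer to 0 and none of their genes passed, although single genes such as ndhD, ndhK and petL had differences as low as many of photosystem II. In sid2-1, 37 of 41 genes had a lower mean at 4 °C and the median log2 difference was -0.24. That median moved with single arrays, to -0.12 without replicate 1 and -0.46 without replicate 2 of sid2-1 at 4 °C, and to -0.42 without replicate 3 of sid2-1 at 22 °C. In wild type, 32 had a lower mean and the median was -0.37. Over all probe sets tested the medians were 0.00 in both, with 45.0% and 46.5% of differences below 0. Fewer were above 0 (9558 against 10225 below in sid2-1, and 9430 against 10586 in wild type), and the rest were 0. Tests were made with limma across all probe sets, with Benjamini-Hochberg adjustment and calls at an adjusted p under 0.05. In sid2-1 1 of 41 genes was called, against 6.28% of all probe sets (3.20% higher and 3.08% lower). In wild type 3 of 41 were called, against 13.0% (6.81% higher and 6.19% lower). The share of the 41 genes that was called thus lay below that of all probe sets in both genotypes, though on few genes. The median SE of these differences was 0.30 over the 41 genes and 0.17 over all probe sets in each genotype. Only 54.6% of all probe sets had a mean above 4, against 40 of the 41 genes, so the compared SEs cover unlike signal ranges. Whether the larger SE lowered the share was not tested.

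**Figure D1:**
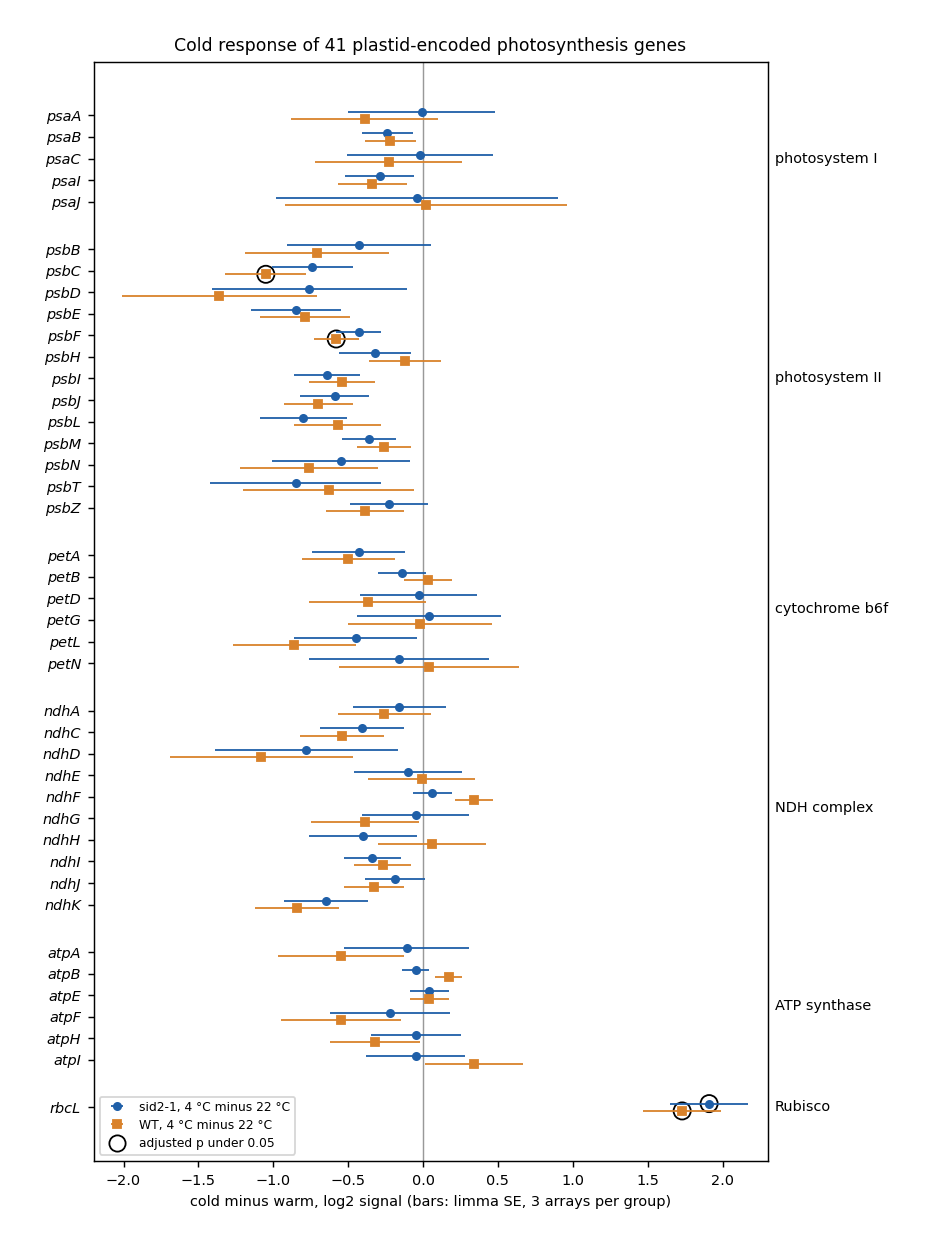
Log2 difference between 4 °C and 22 °C for each of the 41 genes (x axis, log2 signal), by complex, with sid2-1 as circles and wild type as squares; bars are the limma standard error with 3 arrays per group, and open rings mark an adjusted p under 0.05. rbcL stands alone on the right at 1.91 in sid2-1 and 1.73 in wild type, and all 13 photosystem II genes lie left of 0 in both genotypes.

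Of the 41 genes, rbcL had the lowest p in the cold comparison of each genotype. Its signal was 12.47, 12.85 and 12.88 in sid2-1 at 4 °C, against 11.25, 10.58 and 10.65 in sid2-1 at 22 °C. In wild type it was 13.02, 12.49 and 12.94 at 4 °C, against 11.33, 10.63 and 11.31 at 22 °C. All 6 cold arrays lay above all 6 warm arrays, and rbcL was the 1 gene of the 41 without overlap upward in both genotypes, where 7.32% of all probe sets were. In one genotype alone, 10.8% (sid2-1) and 14.3% (wild type) of all probe sets lay higher without overlap, as did atpB in wild type. It rose 3.75-fold in sid2-1 (log2 difference 1.91 ± 0.26, SE, n = 3 against 3, limma adjusted p = 0.00456) and 3.31-fold in wild type (1.73 ± 0.26, adjusted p = 0.00401). The difference between the 2 rises was 0.18, with a 95% interval from -0.65 to 1.01 and an adjusted p of 0.980 for the interaction in limma. Leaving out the replicate 2 arrays of every group, an alternative chosen after the data were seen, gave 1.73 in sid2-1 with an adjusted p of 0.0639, and 1.66 in wild type with 0.0438. The genes beside rbcL on the plastid chromosome had differences near 0. On one side atpB, of the ATP synthase, differed by -0.05 ± 0.09 in sid2-1 and 0.17 ± 0.09 in wild type. On the other side accD, of fatty acid synthesis, differed by -0.07 ± 0.35 and 0.20 ± 0.35 (SE).

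**Figure D2:**
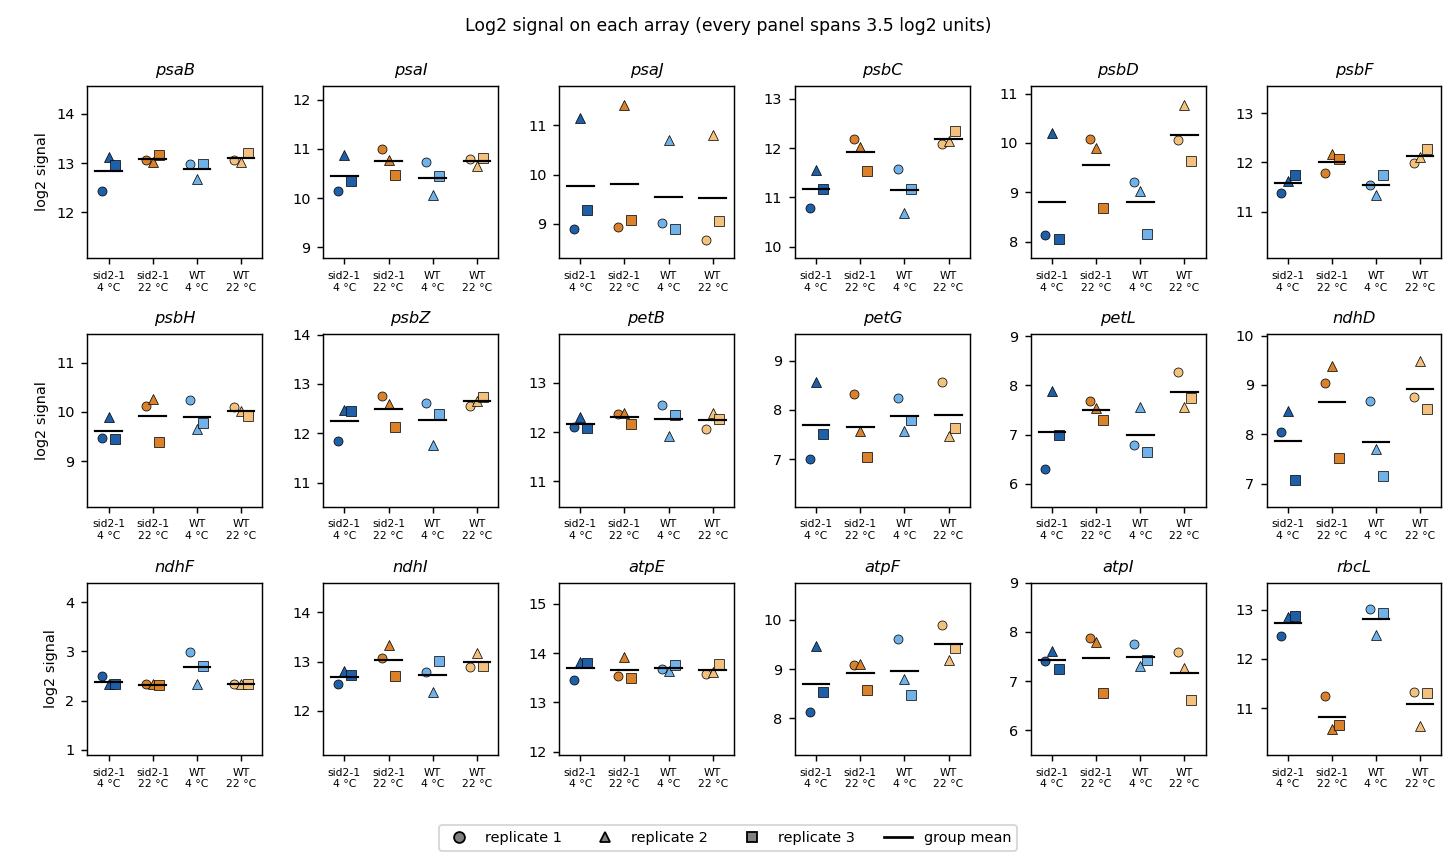
Log2 signal (y axis) on each array for the 18 genes described array by array, with the cold group left of the warm group, first for sid2-1 and then for wild type; the shape gives the replicate number and the line the group mean. For rbcL the cold and warm arrays do not overlap, for psbC and psbF the wild-type groups do not overlap, and for psaJ replicate 2 lies high in all 4 groups.

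Photosystem II was the complex with the lowest median, -0.59 in sid2-1 and -0.63 in wild type. All 13 genes had a lower mean at 4 °C in both genotypes, with differences from -0.85 to -0.23 in sid2-1 and from -1.36 to -0.12 in wild type. At an unadjusted p under 0.05 there were 6 of 13 in sid2-1 and 5 of 13 in wild type, where 20.6% and 25.8% of all probe sets were. The 3 cold arrays lay below the 3 warm arrays without overlap for 5 genes in sid2-1 and 7 in wild type, where 11.1% and 14.2% of all probe sets did so. Of the 13, psbE, psbF and psbI did so in both genotypes (picked out after their values were seen), where 7.65% of all probe sets did.

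The inner antenna protein CP43 is encoded by psbC, and the reaction centre protein D2 by psbD, which overlaps the start of psbC. psbC had signals of 10.79, 11.55 and 11.18 in sid2-1 at 4 °C, against 12.19, 12.02 and 11.54 in sid2-1 at 22 °C. In wild type they were 11.57, 10.69 and 11.17 at 4 °C, against 12.09, 12.15 and 12.34 at 22 °C. The wild-type groups did not overlap, and the mutant groups overlapped by 1 cold array. psbC fell 2.07-fold in wild type (log2 difference -1.05 ± 0.27, SE, n = 3 against 3, limma adjusted p = 0.0363), and its difference in sid2-1 was -0.74 ± 0.27 (adjusted p = 0.158). The interaction was 0.31 ± 0.38, with a limma adjusted p of 0.939, so the differences of the genotypes were not told apart. Over all alternatives the wild-type difference of psbC stayed between -1.26 and -0.82. Leaving out any 1 wild-type array also lowered the number of wild-type calls over all probe sets. The wild-type call of psbC did not hold under every leave-out of 1 array. It was lost without wild-type replicate 2 at 4 °C (-0.82, limma adjusted p = 0.111), without replicate 3 at 4 °C (-1.06, 0.0765), and without replicate 1 (-1.10, 0.0772), 2 (-1.07, 0.0823) or 3 (-0.98, 0.110) at 22 °C. It was also lost without sid2-1 replicate 3 at 4 °C (0.0540) and sid2-1 replicate 2 at 22 °C (0.0558), which change only the shared estimate of the spread. For psbD, wild type had 9.21, 9.02 and 8.16 at 4 °C against 10.07, 10.77 and 9.63 at 22 °C, with no overlap. In sid2-1 it had 8.13, 10.21 and 8.05 at 4 °C against 10.08, 9.90 and 8.68 at 22 °C, where the highest of these 6 values was a cold one. Its difference was -0.76 ± 0.65 in sid2-1 and -1.36 ± 0.65 in wild type (SE), where it was the lowest of the 41 genes, and neither passed the limma test (adjusted p = 0.585 and 0.236).

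psbE and psbF encode the subunits of cytochrome b559, and psbL and psbJ encode small subunits beside it. These 4 genes follow each other on the plastid chromosome and are transcribed together. Their differences ran from -0.85 to -0.43 in sid2-1 and from -0.79 to -0.57 in wild type. All the measured photosystem II genes, these 4 included, ran from -0.85 to -0.23 and from -1.36 to -0.12. psbF had 11.37, 11.63 and 11.74 in sid2-1 at 4 °C against 11.79, 12.18 and 12.06 in sid2-1 at 22 °C. In wild type it had 11.55, 11.34 and 11.75 at 4 °C against 11.98, 12.12 and 12.27 at 22 °C. Cold and warm arrays did not overlap in either genotype. psbF fell 1.49-fold in wild type (log2 difference -0.58 ± 0.15, SE, n = 3 against 3, limma adjusted p = 0.0353), against a difference of -0.43 ± 0.15 in sid2-1 (adjusted p = 0.136), with an interaction of 0.15 ± 0.21 (adjusted p = 0.953). This call too was lost without wild-type replicate 1 (-0.58, limma adjusted p = 0.0882) or 2 (-0.47, 0.115) at 4 °C and without replicate 1 (-0.65, 0.0525), 2 (-0.58, 0.0849) or 3 (-0.50, 0.114) at 22 °C. Without sid2-1 replicate 2 at 4 °C or replicate 3 at 22 °C the adjusted p was 0.0516 and 0.0517. The calls of psbC and psbF were both lost when only the wild-type arrays were fitted (limma adjusted p = 0.0917 and 0.0909). psbE stood at -0.85 ± 0.30 in sid2-1 and -0.79 ± 0.30 in wild type (SE), and was not called (limma adjusted p = 0.148 and 0.130).

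Among the other photosystem II genes, psbI, which encodes a small subunit near the reaction centre, differed by -0.64 ± 0.22 in sid2-1 and -0.54 ± 0.22 in wild type (SE), uncalled at limma adjusted p of 0.130 and 0.150. psbH, a small phosphoprotein of the core, had the smallest mean shift of the complex. Its signals were 9.47, 9.89 and 9.45 in sid2-1 at 4 °C against 10.11, 10.26 and 9.39 at 22 °C, and 10.23, 9.66 and 9.78 in wild type at 4 °C against 10.10, 10.02 and 9.92 at 22 °C. The groups overlapped in both genotypes (-0.32 ± 0.24 in sid2-1 and -0.12 ± 0.24 in wild type, SE). psbZ, whose product sits at the edge of the core and the antenna, had 11.85, 12.47 and 12.45 in sid2-1 at 4 °C against 12.75, 12.60 and 12.12 at 22 °C, and 12.62, 11.77 and 12.39 in wild type at 4 °C against 12.55, 12.65 and 12.74 at 22 °C, and its groups overlapped too. It is encoded downstream of psbD and psbC, and its differences of -0.23 ± 0.26 in sid2-1 and -0.39 ± 0.26 in wild type (SE) were smaller than theirs. psbB, the gene of the inner antenna protein CP47, differed by -0.43 ± 0.48 and -0.71 ± 0.48 (SE) in sid2-1 and wild type and was not called.

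In photosystem I the median was -0.04 in sid2-1 and -0.23 in wild type, and none of the 5 genes was called in limma (lowest adjusted p = 0.495 and 0.422, with none at an unadjusted p under 0.05). psaB, a reaction centre protein that binds much of the chlorophyll, had 12.43, 13.12 and 12.96 in sid2-1 at 4 °C against 13.06, 13.02 and 13.16 at 22 °C. In wild type it had 12.98, 12.68 and 12.99 at 4 °C against 13.06, 13.03 and 13.21 at 22 °C. The wild-type groups did not overlap, but by a narrow margin (-0.24 ± 0.17 in sid2-1 and -0.22 ± 0.17 in wild type, SE). psaI, a small membrane subunit, had 10.15, 10.88 and 10.34 in sid2-1 at 4 °C against 11.00, 10.78 and 10.47 at 22 °C, and 10.73, 10.06 and 10.44 in wild type at 4 °C against 10.80, 10.65 and 10.81 at 22 °C. Those groups overlapped (-0.29 ± 0.23 in sid2-1 and -0.34 ± 0.23 in wild type, SE). psaA, the partner of psaB in the reaction centre and its neighbour on the chromosome, differed by -0.01 ± 0.49 and -0.39 ± 0.49, and psaC, which carries the iron-sulphur centres, by -0.02 ± 0.49 and -0.23 ± 0.49 (SE) in sid2-1 and wild type.

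The remaining photosystem I gene, psaJ, which encodes a small subunit, differed more between replicate numbers than between groups. It had 8.89, 11.15 and 9.27 on replicates 1, 2 and 3 of sid2-1 at 4 °C, against 8.93, 11.42 and 9.07 at 22 °C. In wild type it had 9.01, 10.71 and 8.90 at 4 °C, against 8.68, 10.81 and 9.06 at 22 °C. Replicate 2 was the highest of every group, by more than the distance between the other arrays. Its group SD of 1.01 to 1.40 was the largest of the 41 genes in 3 groups, with psbD at 1.22 above it in sid2-1 at 4 °C. The cold differences of -0.04 ± 0.94 and 0.02 ± 0.94 (SE) in sid2-1 and wild type carry wide intervals, from -2.18 to 2.11 and from -2.12 to 2.17. The fit behind these intervals leaves out the replicate number, so the distance of replicate 2 from the other arrays widens them. Arrays of the same number lay closer across temperatures, as at 11.15 and 11.42 for replicate 2 of sid2-1. No interval with the replicate number in the fit is given for the cold differences. Replicate 2 was the highest of the 3 arrays in all 4 groups for 6 of 41 genes, namely psaA, psaC, psaJ, psbB, psbN and psbT, against 1.89% of all probe sets. Replicate 3 was the lowest in all 4 groups for another 6, namely ndhD, petD, petN, psaA, psaC and psbD, against 1.01%. Replicate 1 was the lowest in all 4 groups for ndhJ and psbI, against 2.36%. For 0 of the 41 was replicate 1 highest, replicate 2 lowest or replicate 3 highest throughout, against 1.05%, 1.27% and 2.44% of all probe sets. The labels do not say what arrays of one replicate number share. The median SD between replicates was 0.38 in sid2-1 at 4 °C, 0.39 in sid2-1 at 22 °C, 0.34 in wild type at 4 °C and 0.25 in wild type at 22 °C over the 41 genes, against 0.25 to 0.28 over all probe sets with a mean above 4.

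**Figure D3:**
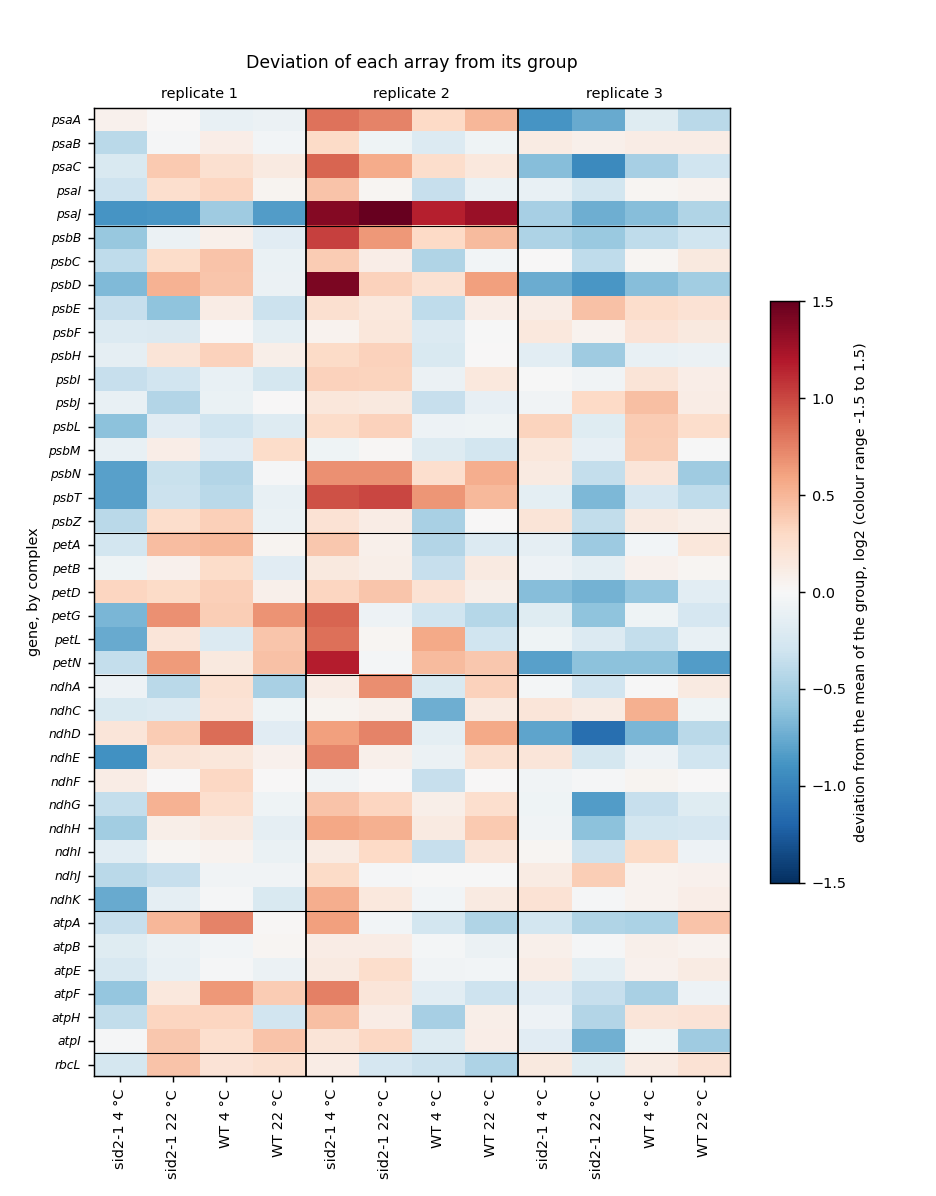
Deviation of each array from the mean of its group (colour, log2) for the 41 genes (rows, by complex), with the arrays ordered by replicate number (columns). psaJ is high on all 4 replicate 2 arrays, and 6 genes in all have replicate 2 as the highest array of every group.

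The cytochrome b6f complex had medians of -0.15 in sid2-1 and -0.19 in wild type, with none of 6 genes called in limma (lowest adjusted p = 0.507 and 0.227) or at an unadjusted p under 0.05. petB, the gene of cytochrome b6, had 12.10, 12.31 and 12.09 in sid2-1 at 4 °C against 12.37, 12.39 and 12.16 at 22 °C, and 12.55, 11.92 and 12.34 in wild type at 4 °C against 12.07, 12.38 and 12.27 at 22 °C. Its differences of -0.14 ± 0.16 and 0.03 ± 0.16 (SE) in sid2-1 and wild type were among the more precise ones, with overlapping groups. petL, a small subunit, had 6.30, 7.89 and 6.99 in sid2-1 at 4 °C against 7.69, 7.54 and 7.30 at 22 °C. In wild type petL had 6.79, 7.57 and 6.64 at 4 °C against 8.28, 7.56 and 7.75 at 22 °C, a difference of -0.86 ± 0.41 that overlapped by the replicate 2 arrays, and in sid2-1 it differed by -0.45 ± 0.41 (SE). Its neighbour petG, another small subunit, had 7.00, 8.56 and 7.51 in sid2-1 at 4 °C against 8.33, 7.57 and 7.05 at 22 °C. In wild type petG had 8.24, 7.57 and 7.80 at 4 °C against 8.57, 7.47 and 7.64 at 22 °C. The spread between replicates of petG was wider than any shift (0.04 ± 0.48 in sid2-1 and -0.02 ± 0.48 in wild type, SE).

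The NDH complex, which feeds electrons back around photosystem I, had medians of -0.27 in sid2-1 and -0.30 in wild type. None of its 10 genes was called in limma (lowest adjusted p = 0.244 and 0.0968), and 0 in sid2-1 and 2 in wild type had an unadjusted p under 0.05, namely ndhK and ndhF. ndhK and ndhJ encode subunits of the arm that faces the stroma, and ndhC, which lies beside them on the chromosome, a membrane subunit. These 3 neighbours had differences of -0.65 to -0.19 in sid2-1 and -0.84 to -0.33 in wild type. ndhD, a membrane subunit, had 8.05, 8.48 and 7.07 in sid2-1 at 4 °C against 9.03, 9.39 and 7.52 at 22 °C, and 8.68, 7.69 and 7.15 in wild type at 4 °C against 8.75, 9.49 and 8.51 at 22 °C. The groups overlapped in both genotypes, and the differences of -0.78 ± 0.61 and -1.08 ± 0.61 (SE) in sid2-1 and wild type were the lowest of the complex. ndhI, an iron-sulphur subunit, had 12.54, 12.82 and 12.72 in sid2-1 at 4 °C against 13.07, 13.33 and 12.71 at 22 °C, and 12.78, 12.38 and 13.01 in wild type at 4 °C against 12.89, 13.17 and 12.91 at 22 °C, again with overlap (-0.34 ± 0.19 in sid2-1 and -0.27 ± 0.19 in wild type, SE). ndhF, a membrane subunit, was the 1 gene of the 41 with a mean below 4. It had 2.50, 2.33 and 2.33 in sid2-1 at 4 °C against 2.33, 2.33 and 2.31 at 22 °C, and 2.98, 2.33 and 2.71 in wild type at 4 °C against 2.33 on all 3 arrays at 22 °C. These values lie near the lowest value of the table and recur, so no fold is given. ndhF was called in wild type once replicate 2 at 4 °C was left out (log2 difference 0.52, limma adjusted p = 0.00927), a call that rests on that floor.

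The ATP synthase had medians of -0.05 in sid2-1 and -0.14 in wild type, and none of its 6 genes was called in limma (lowest adjusted p = 0.882 and 0.278) or had an unadjusted p under 0.05. atpE, the epsilon subunit of the catalytic head, had 13.45, 13.82 and 13.80 in sid2-1 at 4 °C against 13.53, 13.91 and 13.50 at 22 °C. In wild type it had 13.67, 13.64 and 13.76 at 4 °C against 13.57, 13.61 and 13.78 at 22 °C. Both groups overlapped and the differences were 0.04 ± 0.13 in each genotype (SE), near the top of the signal range. atpF, a subunit of the stalk, had 8.12, 9.46 and 8.53 in sid2-1 at 4 °C against 9.08, 9.10 and 8.58 at 22 °C, and 9.60, 8.79 and 8.47 in wild type at 4 °C against 9.89, 9.19 and 9.43 at 22 °C (-0.22 ± 0.40 in sid2-1 and -0.55 ± 0.40 in wild type, SE). atpI, a membrane subunit at the other end of the same gene cluster, had 7.40, 7.62 and 7.25 in sid2-1 at 4 °C against 7.88, 7.79 and 6.76 at 22 °C, and 7.75, 7.30 and 7.43 in wild type at 4 °C against 7.59, 7.26 and 6.62 at 22 °C. atpI differed by -0.05 ± 0.33 in sid2-1 and 0.34 ± 0.33 in wild type (SE), so the cluster atpI, atpH, atpF and atpA held values of either sign in wild type.

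Whole complexes were then followed array by array, as the median over their genes of each gene's deviation from its own mean of 12 arrays. For photosystem II this median was -0.73, 0.03 and -0.30 in sid2-1 at 4 °C, against 0.14, 0.57 and -0.01 in sid2-1 at 22 °C. In wild type it was -0.32, -0.39 and -0.10 at 4 °C, against 0.24, 0.41 and 0.33 at 22 °C. The wild-type groups did not overlap, and in sid2-1 1 cold array lay above 1 warm array. Over all 41 genes the medians were -0.49, 0.16 and -0.20 in sid2-1 at 4 °C, against 0.14, 0.34 and -0.21 at 22 °C, which overlap, and 0.00, -0.23 and -0.15 in wild type at 4 °C, against 0.18, 0.31 and 0.16 at 22 °C, which do not. The NDH complex likewise overlapped in sid2-1 and not in wild type, where it had 0.06, -0.23 and -0.08 at 4 °C against 0.16, 0.36 and 0.11 at 22 °C. The medians of photosystem I, the cytochrome b6f complex and the ATP synthase overlapped between temperatures in both genotypes. Photosystem I ran from -0.59 to 0.80 over the 6 mutant arrays, with replicate 2 on top at both temperatures. These medians are descriptions of 12 arrays and were not tested.

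**Figure D4:**
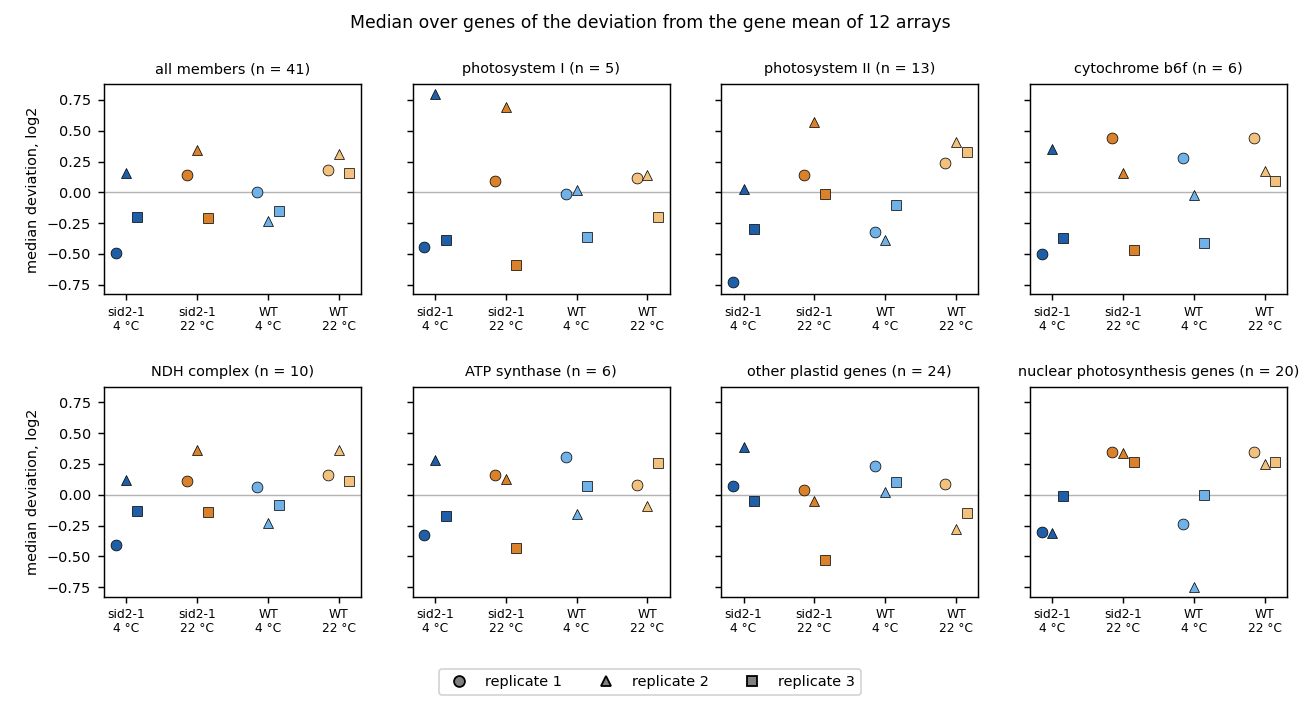
Median deviation from the gene mean of 12 arrays (y axis, log2) for each array, over the genes of each complex, over other plastid genes and over nuclear photosynthesis genes; the shape gives the replicate number. Photosystem II lies between -0.39 and -0.10 in wild type at 4 °C and between 0.24 and 0.41 in wild type at 22 °C, while photosystem I in sid2-1 spreads from -0.59 to 0.80.

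The cold differences of the genotypes went together across genes. Both were negative for 31 of the 41 and both positive for 3, namely rbcL, ndhF and atpE. Across the 40 genes other than rbcL they correlated at a Pearson r of 0.77 and a Spearman rho of 0.75, a description over genes that share arrays and, in part, transcripts. Neither the mean signal of a gene (Spearman rho -0.09) nor its length (0.16) went with the mean cold difference over those 40. Along the chromosome, values of neighbours were close in some clusters, such as psbE, psbF, psbL and psbJ, and wide in others. The cluster atpI, atpH, atpF and atpA ran from -0.22 to -0.05 in sid2-1 but from -0.55 to 0.34 in wild type. In psbB, psbT, psbH, petB and petD, which are cotranscribed and cut into many processed forms, the photosystem II genes stood at -0.85 to -0.32 in sid2-1 and -0.71 to -0.12 in wild type, beside petB at -0.14 and 0.03 and petD at -0.03 and -0.37. In the long cluster of ndhH, ndhA, ndhI, ndhG, ndhE, psaC and ndhD, all 7 had lower means in sid2-1 (-0.78 to -0.02) and 6 of 7 in wild type (-1.08 to 0.06), with ndhD at the low end of both.

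**Figure D5:**
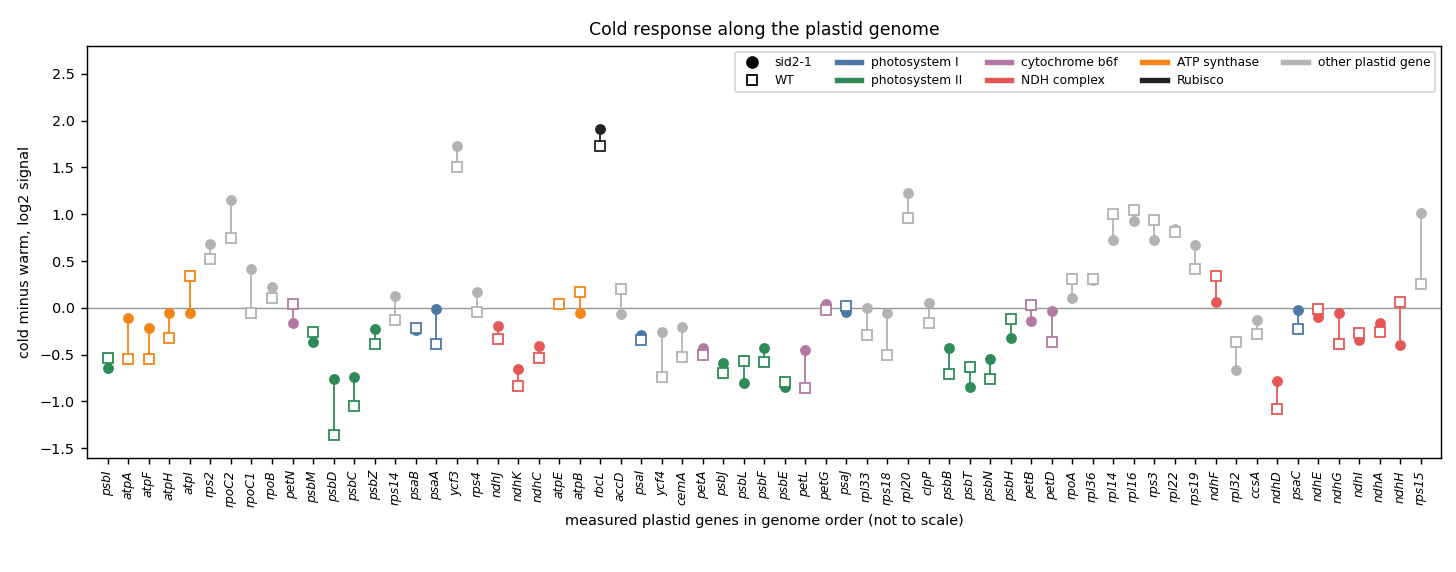
Cold difference (y axis, log2 signal) of the measured plastid genes in the order of the plastid chromosome (x axis, not to scale), with sid2-1 as filled circles, wild type as open squares and complexes in colour. rbcL stands at 1.91 in sid2-1 and 1.73 in wild type between neighbours near 0, psbE, psbF, psbL and psbJ lie together below 0, and ribosomal protein genes from rpl14 to rps19 lie above 0.

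The second question was whether the genotypes differed. None of the 41 genes was called for sid2-1 against wild type at 4 °C, where limma called 0.615% of all probe sets (0.0132% higher and 0.602% lower), nor at 22 °C, where it called 0.00440% (0.00% higher), nor for the interaction, where it called 0.0615% (0.00440% higher and 0.0572% lower). None had an unadjusted p under 0.05 in any of these 3 comparisons, where 9.83%, 3.03% and 4.08% of all probe sets did. The median difference was -0.01 at 4 °C, with values from -0.31 for ndhE to 0.36 for psaC, and -0.03 at 22 °C, from -0.60 for psbD to 0.34 for ndhH. The median interaction was 0.10, from -0.46 for ndhH to 0.60 for psbD. For rbcL the difference was -0.08 at 4 °C (95% interval -0.67 to 0.50) and -0.26 at 22 °C (-0.85 to 0.32). For psbC it was 0.03 at 4 °C (95% interval -0.58 to 0.64) and -0.28 at 22 °C (-0.89 to 0.34). The 95% interval lay within 1 log2 unit of 0 on both sides for 28 of 41 genes at 4 °C, 22 at 22 °C and 14 in the interaction, so that for the others a difference of 2-fold was within the interval. These intervals leave out that arrays of one replicate number deviated together within a temperature. With the replicate number as a block within each temperature, a fit added after the data were seen, the counts were 33 at 4 °C, 28 at 22 °C and 17 in the interaction. For psaJ the block gave an interval of -0.20 to 0.66 at 4 °C, against -1.92 to 2.38 without it. Its interval left out 0 for 1 gene, ndhF at 4 °C, whose values lie near the lowest of the table, and no gene was called. At 22 °C, atpB was higher on all 3 sid2-1 arrays (13.26, 13.48 and 13.35) than on the wild-type arrays (13.21, 13.09 and 13.23), and atpF lower (9.08, 9.10 and 8.58 in sid2-1, against 9.89, 9.19 and 9.43 in wild type). These were the 2 genes without overlap in that comparison, where 2.53% of all probe sets were higher and 2.40% lower in this way, and at 4 °C none of the 41 was (4.88% and 6.09%).

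Finally, the 41 genes were set beside the other genes of the same genome and beside nuclear genes of photosynthesis. Of 24 other plastid genes measured by a probe set of their own, 17 had a higher mean in the cold in sid2-1 and 14 in wild type, with medians of 0.26 and 0.23. Of 14 genes of plastid ribosomal proteins among them, 7 were higher at an unadjusted p under 0.05 in sid2-1 and 5 in wild type, and 1 was lower in sid2-1, rpl32 (-0.66 ± 0.21, SE), where 20.6% and 25.8% of all probe sets had such a p in either direction. rpl22 and rps3 were called higher in both. ycf3, which is needed to assemble photosystem I, differed by 1.73 ± 0.46 in sid2-1 and 1.51 ± 0.46 in wild type (SE) and was not called (limma adjusted p = 0.0638 and 0.0671). The cold arrays of ycf3 all lay above the warm arrays in both genotypes, while the photosystem I genes psaA and psaB, its neighbours, lay below or near 0. Of 20 nuclear photosynthesis genes, 18 had a lower mean in the cold in each genotype, with medians of -0.52 in sid2-1 and -0.64 in wild type, and limma called 3 of them lower in sid2-1 (CRR41, LHCB4.3 and PGRL1B) and 5 in wild type (CRR28 and NdhN as well). The largest falls were those of PGRL1B (-2.21 ± 0.23 in sid2-1 and -2.54 ± 0.23 in wild type, SE) and LHCB4.3 (-2.29 ± 0.39 and -2.47 ± 0.39). NdhN stood at -0.96 ± 0.28 in sid2-1 and -1.79 ± 0.28 in wild type (SE). CRR41, an assembly factor of the NDH complex, fell in sid2-1 (-1.21 ± 0.29, SE, limma adjusted p = 0.0424) and in wild type (-1.12 ± 0.29, 0.0352). CRR28, a pentatricopeptide repeat protein that edits ndh transcripts, fell in wild type (-0.78 ± 0.20, limma adjusted p = 0.0349) and stood at -0.36 ± 0.20 in sid2-1 (0.380), with an untested relation to the values of the ndh genes. Cold and warm arrays did not overlap, and lay lower in the cold in both genotypes, for 12 of the 20 nuclear genes, against 3 of the 41 plastid-encoded ones and 7.65% of all probe sets. The 20 are only the genes whose symbol matched a list of names and that had a probe set annotated to 1 gene. Beside the LHCB4 genes they hold no light-harvesting gene, and no gene of the small subunit of Rubisco. Assembly and editing factors such as CRR41 and CRR28 are among them. No test was made between these lists.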

How the data were processed

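The deposited table gives log2 signals for 22810 probe sets on 12 arrays, which the authors obtained by GCRMA. The submitters' processing notes name GCRMA and limma without a version, and which arrays were normalized jointly is not given in the sources used here. After 64 control probe sets were left out, 22746 were tested. Of 14016 probe sets in the platform annotation, 13513 name 1 gene, and 13436 of those were found in the TAIR10.1 gene table by Entrez number. The 12 arrays entered 1 linear model with 4 group means in limma 3.58.1 in R 4.3.3 (8 residual and 0.61 prior degrees of freedom), and p values, two-sided, were adjusted over all probe sets of a contrast. Arrays carry no counts, so their number limits the precision. Per-array values are given for genes called in any contrast, for rbcL, and in each complex for the gene with the highest mean and those with the largest rise and fall in the mean cold response. Other plastid genes named with values (psaA, psaC, psbB, psbE, psbI, ndhK, petD, atpB, accD, rpl32 and ycf3) were picked after their values were seen. So were the nuclear genes RCA, PGRL1B, LHCB4.3, NdhN, CRR41 and CRR28. The genes and lists were chosen with earlier results of these data known. A list of nuclear regulators of plastid transcripts matched only HCF101, PAP20 and PAP85, of which at least the last 2 are no such regulators, and was not used.

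Arrays of one replicate number deviated together within a temperature. Deviations from the group means correlated at 0.283 to 0.467 for the 3 same-numbered pairs at 22 °C and at 0.211 to 0.252 at 4 °C, over 12422 probe sets with a mean above 4. Differently numbered pairs correlated at -0.401 to 0.046 at 22 °C and at -0.357 to 0.134 at 4 °C. Over all groups, such pairs reached 0.212. The numbers therefore pair the samples in the genotype comparisons, by the data and not by the labels. Between temperatures the pairs correlated at 0.031 to 0.179 in sid2-1 and 0.00 to 0.244 in wild type, and were not taken as paired. Same-numbered pairs that differed in both genotype and temperature correlated at -0.048 to 0.371. Some pairs between temperatures thus reached the values found at 4 °C. For some of the 41 genes, such as psaJ, a replicate number stood out in all 4 groups, so the cold comparisons may also hold such an effect, which they leave out. Alternatives were a replicate block, other variance models, a filter on low values, other normalizations, fits of 2 groups and leaving out arrays. Python 3.11.15, pandas 2.3.3 and matplotlib 3.10.9 made tables and plots.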

Additional observations from a re-analysis of the deposited data

How the results depend on the processing

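The rise of rbcL passed the limma test in both genotypes under every alternative but the one without replicate 2 of every group, which lost it in sid2-1 (otherwise log2 difference 1.78 to 2.12 in sid2-1 and 1.5 to 1.89 in wild type). The number of genes called lower in sid2-1 was 0, and 1 with a replicate block (psbI) or after another quantile normalization (psbF). In wild type 2 were called lower, against 4 with only probe sets of a mean above 4 (ndhK and psbJ added) and 5 after another quantile normalization, which also called 2 higher (atpB beside rbcL). With a replicate block in wild type, psbF and psbI were called lower and psbC was not (limma adjusted p = 0.0685). With only the wild-type arrays fitted, limma called ndhJ and ndhK lower in place of psbC and psbF. Leaving out 1 array at a time gave 0 to 3 genes lower and 1 to 2 higher in wild type, and 1 higher with 0 lower in sid2-1. The median cold difference ranged from -0.46 to -0.12 in sid2-1 and from -0.43 to -0.33 in wild type, the median genotype difference from -0.18 to 0.16 at 4 °C and from -0.20 to 0.07 at 22 °C, and the median interaction from -0.13 to 0.20. Without replicate 2 of every group, an alternative chosen after the data were seen, 0 genes were called higher in sid2-1 and 0 lower in wild type, and the median genotype difference at 4 °C was -0.29. With fewer arrays the tests have less power, and the other causes were not tested. With a replicate block within each temperature, also added later, 0 genes were called in the genotype comparisons or the interaction, as without it, and a replicate block over all arrays likewise gave 0 there.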
